A study of Mus musculus with 8 samples.

Results

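The interaction between loss of NFIB and loss of NFIX was measured in hair follicle stem cells of 4 mouse genotypes, with 2 RNA-seq libraries per genotype and all 8 libraries of the series in use. The interaction is the NFIB/X-dKO minus NFIB-cKO difference less the NFIX-cKO minus WT difference, on log2(TPM + 1), and is 0 where the changes of the single knockouts add up. TPM is a level scaled for transcript length and to the same sum in every library. Of 46517 genes in the deposited table, 21547 were protein coding, and the 12404 of these that reached 1 TPM in 2 or more libraries were tested. The genes sorted by pattern were the 394 protein-coding genes that differed between NFIB/X-dKO and WT at a limma adjusted p under 0.05, which is 3.18% of those tested. Of these, 223 (1.8% of those tested) rose and 171 (1.38%) fell.

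Nuclear factor I proteins are transcription factors that bind DNA as homodimers or heterodimers at a palindrome whose core reads TTGGCA. The mouse has 4 family genes, Nfia, Nfib, Nfic and Nfix, whose DNA-binding domains are closely alike, so that members can occupy the same sites. Hair follicle stem cells rest in the bulge of the follicle between hair cycles, carry CD34 and integrin alpha 6, and give rise to the hair germ at the start of growth. NFIB is known in these cells for restraining signals to the neighbouring melanocyte stem cells.

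All mice were males at postnatal day 70, in the second resting phase of the hair cycle, and cells came from back skin, sorted as DAPI and Sca-1 negative and integrin alpha 6 and CD34 positive. WT mice (animals 34 and 82) carried NFIB fl/fl, NFIX fl/fl and R26-YFP fl/fl without Cre, and their cells were not gated on YFP. All knockout cells were gated as YFP positive and came from mice with Sox9-CreER, a Cre recombinase under Sox9 control that is fused to part of an oestrogen receptor, and R26-YFP fl/fl. NFIB-cKO (81 and 85) added NFIB fl/fl. NFIX-cKO (32 and 88) added NFIX fl/fl together with NFIB fl/+, so it also carried 1 floxed Nfib allele. The NFIX-cKO differences, the NFIX shares and the interaction therefore include any effect of losing 1 Nfib allele, which cannot be told apart from loss of NFIX. NFIB/X-dKO (33 and 36) added both genes as fl/fl. A difference common to every Cre and YFP-gated group is absent only from WT and therefore enters the interaction with its sign turned, so it cannot be told apart from an interaction. The NFIB/X-dKO animals are numbered in the 30s, those of NFIB-cKO in the 80s, while WT and NFIX-cKO hold 1 of each. The labels do not say what the numbers stand for. With the number series as a covariate, 1984 protein-coding genes differed between the series, 412 of them higher in the 80s and 1572 lower. The interaction carries that difference in full, and the interactions past the test are given with this covariate too. With the covariate, the interaction estimate rests on NFIB/X-dKO, NFIB-cKO, WT 82 and NFIX-cKO 32. WT 34 and NFIX-cKO 88 do not enter that estimate. A fit within the number series gives the same estimate, so it is not a separate check.

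The targeted genes gave no check of the labels at gene level. Nfib stood at 230 and 209 TPM in WT, 293 and 233 in NFIB-cKO, 199.97 and 148 in NFIX-cKO, and 377 and 389 in NFIB/X-dKO. Nfix stood at 158 and 157 in WT, 154 and 147 in NFIB-cKO, 138 and 123 in NFIX-cKO, and 125 and 148 in NFIB/X-dKO. Nfib was not lower where it had been deleted, and Nfix lay below WT in all 6 knockout libraries, NFIB-cKO included, by little; the sources used here do not name the exons removed. The other family members showed no interaction past the test: Nfia lay between 8.62 and 16.3 TPM (interaction 0.53 ± 0.26 SE, adjusted p = 0.526) and Nfic between 25.8 and 40.0 TPM (0.38 ± 0.29, adjusted p = 0.601, both limma). The sorted identity was seen in all 8 libraries, with Cd34 at 811 to 1144 TPM, Itga6 at 124 to 218 and Krt15 at 7507 to 14487. Among markers of other cells, the 5 leukocyte markers summed to 10.6 to 45.6 TPM and the 5 melanocyte markers to 10.4 to 32.4. The 5 fibroblast and papilla markers summed to 24.4 to 86.7 TPM, with Col1a1 at 8.27 to 77.3 and Col1a2 at 2.17 to 33.6. The muscle marker Des and endothelial marker Cdh5 were at or near 0, while the endothelial marker Pecam1 stood at 1.04 to 1.84. Ly6a, which encodes Sca-1, was higher in NFIX-cKO 32 (37.0 TPM) and in both NFIB/X-dKO libraries (28.7 and 24.4) than in the other 5 (6.46 to 11.9). Expected counts, where deposited, totalled 57173266 to 66854625 in 5 libraries. Depth for WT 34, WT 82 and NFIB-cKO 81 is unknown.

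Most genes changed in NFIB/X-dKO lay part of the way from WT in the single knockouts, and farther in NFIB-cKO than in NFIX-cKO. Each single knockout difference from WT was divided by the NFIB/X-dKO difference, which gives its share of the full change. The median share was 0.62 in NFIB-cKO (quartiles 0.44 and 0.81) and 0.32 in NFIX-cKO (0.18 and 0.46), and the median sum of both shares was 0.94 (0.71 and 1.2). The NFIB share exceeded the NFIX share in 327 of the 394 genes and fell below it in 65. In NFIB-cKO, 10 of the 394 lay on the other side of WT from NFIB/X-dKO, and in NFIX-cKO 27 did. Genes that fell had larger shares (median 0.65 in NFIB-cKO, 0.36 in NFIX-cKO, sum 1.03) than genes that rose (0.61, 0.27 and 0.89). The same WT libraries enter every share, so the shares of a gene move together with any deviation of WT, and they are given as descriptions with no test.

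The 394 genes were sorted by these shares. A change was counted as full in a single knockout at a share of 0.75 or more, and the singles as doing little where both shares were under 0.25. The remaining genes were split by the sum of both shares, as adding up within 0.25 of 1, as more than the sum where the singles together gave less than that, and as less than the sum where they gave more. On the log2 scale and with these limits, changes that added up numbered 136 genes (34.5%) and changes full in NFIB-cKO alone 114 (28.9%). A further 94 (23.9%) changed by more than the sum of the singles. The singles did little for 20 (5.08%) and these are the genes with a redundant layout in the sense of this sorting. Only 9 genes (2.28%) were full in NFIX-cKO alone, 10 (2.54%) were full in both singles, and 11 (2.79%) changed by less than the sum. The order of the classes depends on scale and library: on linear TPM 123 genes were full in NFIB-cKO, 106 changed by more than the sum and 80 added up, and without NFIX-cKO 32 the share adding up (22.6%) was below the share above the sum (32.6%). The borders are not sharp. Fhod3 was counted as full in NFIB-cKO at a share of 0.752 while Fgf13, at 0.746, was counted as adding up. Dkk3 (shares 0.24 and -0.11) was the last gene inside the class where singles do little, and Slc7a6 (0.25 and 0.23) the first outside it. Bpgm, at a limma adjusted p of 0.0499, was the last gene counted as changed and Atp2a3, at 0.0504, the first left out. The count of 394 depends on single libraries: leaving out NFIB/X-dKO 33 gave 39 and NFIB/X-dKO 36 gave 31. It was 165 when WT 82 was dropped, and 205 or 204 when NFIB-cKO 81 or NFIB-cKO 85 was.

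**Figure D1:**
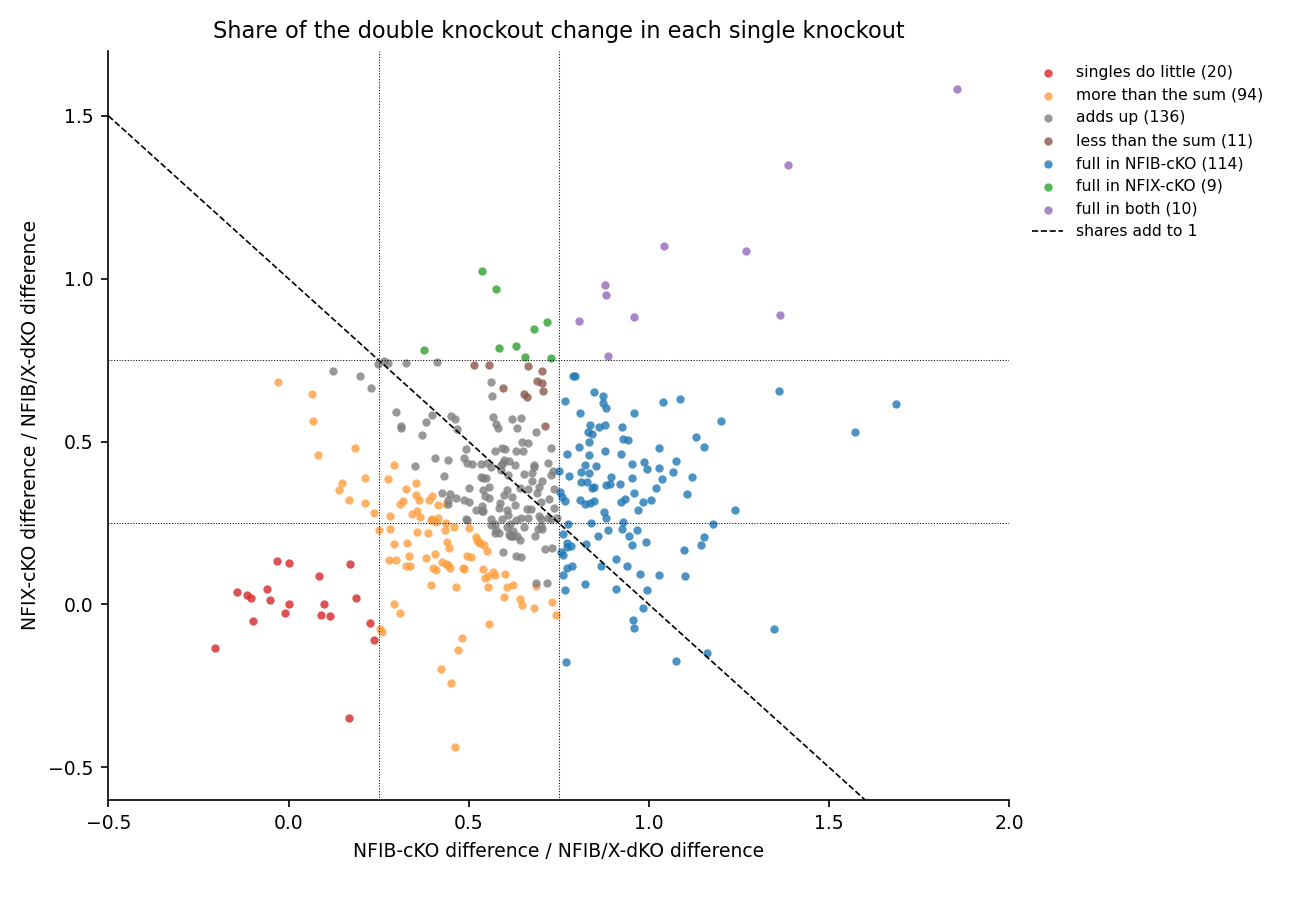
Share of the NFIB/X-dKO change reached in NFIB-cKO (horizontal axis) and in NFIX-cKO (vertical axis) for the 394 protein-coding genes changed in NFIB/X-dKO, 1 point per gene, coloured by class with the class size in the legend; shares have no unit. Dotted lines mark shares of 0.25 and 0.75 and the dashed line marks shares that add to 1; most points lie below and to the right, where the NFIB share is the larger (327 genes).

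Promoters are shown for 3 falling genes with a match to the NFI core, 1 from each of the largest patterns, to let the layout of their levels be read beside the sequence. They hold the 250 bases before a RefSeq start site on GRCm38.p6, read along the gene's strand, with each match to TTGGCA (searched on both strands, so the other strand reads TGCCAA) in capitals. Sardh, whose fall added up, lies at chr2:27247304-27247553 on the minus strand and holds a match 135 bases before the start. Ltbp2, whose fall was full in NFIB-cKO, lies at chr12:84876492-84876741 on the minus strand with a match at 114 bases. Tgm5, which fell by more than the sum, lies at chr2:121085842-121086091 on the minus strand with a match at 34 bases.
Sardh: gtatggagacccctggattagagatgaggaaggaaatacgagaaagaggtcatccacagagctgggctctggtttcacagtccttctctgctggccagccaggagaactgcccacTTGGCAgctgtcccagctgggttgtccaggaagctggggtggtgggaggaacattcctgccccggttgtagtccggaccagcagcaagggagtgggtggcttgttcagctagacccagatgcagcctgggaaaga
Ltbp2: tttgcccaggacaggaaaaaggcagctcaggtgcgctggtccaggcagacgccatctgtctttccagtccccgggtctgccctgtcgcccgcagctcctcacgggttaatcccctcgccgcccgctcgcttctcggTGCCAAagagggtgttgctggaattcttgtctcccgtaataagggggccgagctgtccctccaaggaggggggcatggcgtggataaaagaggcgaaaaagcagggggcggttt
Tgm5: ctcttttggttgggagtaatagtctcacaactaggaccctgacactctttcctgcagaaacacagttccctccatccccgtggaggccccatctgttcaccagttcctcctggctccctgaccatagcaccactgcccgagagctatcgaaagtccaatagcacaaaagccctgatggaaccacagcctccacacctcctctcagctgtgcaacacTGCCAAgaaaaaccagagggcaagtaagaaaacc
TTGGCA was found in at least 1 promoter of 11.8% of the tested protein-coding genes with an entry (9424 of 12397 gene symbols). The palindrome of TGGC, 5 free bases and GCCA, whose matches can overlap those of TTGGCA, was found in 0.902%, and its longer form of TTGGC, 5 free bases and GCCAA in 0.0318%. Only 283 of the 394 changed genes had an entry, too few for a comparison, which was therefore not made. A match describes the letters of this window and is no evidence of binding.

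Where the singles did little, 11 of the 20 genes had established names and 9 were predicted genes. Cd24a, which encodes the small GPI-anchored surface glycoprotein CD24, stood at 279 and 197 TPM in WT, 247 and 218 in NFIB-cKO, 214 and 245 in NFIX-cKO, and 679 and 514 in NFIB/X-dKO. The 6 other libraries overlapped among genotypes and both NFIB/X-dKO libraries lay above all of them. It rose by 1.33 ± 0.21 SE on the log2 scale (limma adjusted p = 0.025), with differences of -0.02 in NFIB-cKO and -0.03 in NFIX-cKO. Tyro3, a receptor tyrosine kinase for GAS6 and protein S, showed the same layout, with 21.9 and 17.7 TPM in WT, 21.2 and 20.9 in NFIB-cKO, 23 and 19.3 in NFIX-cKO, and 41.4 and 44.6 in NFIB/X-dKO. Its rise was 1.09 ± 0.16 (adjusted p = 0.0207). Unc5b, a netrin receptor, Lrrtm4, a synaptic adhesion protein, Cpa6, a secreted carboxypeptidase, and Ank2, a membrane scaffold, rose by 0.86, 1.62, 1.45 and 1.42. Unc5b and Ank2 lie outside the naming rule and were added after their values were seen.

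In the same class 5 genes fell. Atp6v1b1, a subunit of the proton pump of acid-secreting cells, stood at 11.2 and 11.9 TPM in WT, 5.77 and 13 in NFIB-cKO, 20.4 and 20.2 in NFIX-cKO, and 1.37 and 2.23 in NFIB/X-dKO. NFIX-cKO lay above WT and NFIB/X-dKO below all other libraries, and the change from WT was -2.18 ± 0.34 (adjusted p = 0.0234). Dkk3, a secreted protein of the Dickkopf family and a bulge marker, stood at 337 and 303 TPM in WT, 274 and 294 in NFIB-cKO, 367 and 312 in NFIX-cKO, and 185 and 199.83 in NFIB/X-dKO (-0.73 ± 0.13, adjusted p = 0.0372). Clic1, a chloride intracellular channel protein, stood at 270 and 281 TPM in NFIB/X-dKO against 385 to 424 in the other 6 libraries (-0.57 ± 0.11, adjusted p = 0.0395). These sizes are small. The NFIB/X-dKO libraries did not overlap with any other group, which for WT the naming rule required. Mia, a small secreted protein, fell by 1.21 and was named after its values were seen. Pagr1a (-3.09) is uncertain: 3 overlapping entries, Pagr1a listed at 2 positions and Pagr1b, share the locus at chr7:127015033-127017352. Summed over the 3 entries the level was 38.2 and 48.4 TPM in WT, 63.6 and 56.9 in NFIB-cKO, 38.8 and 51.1 in NFIX-cKO, and 45.0 and 44.7 in NFIB/X-dKO, so the sum did not fall.

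The 9 predicted genes of this class rose together in neighbouring entries. Of these, 8 lie within chr9:3000922-3038316 (GRCm38), where 8 of the 9 protein-coding genes tested were in the class, and Gm21738 lies on chromosome 14. Reads of close copies can be split among entries, so single entries are uncertain. Their summed TPM was 5.52 and 1.7 in WT, 2.10 and 0.66 in NFIB-cKO, 7.59 and 1.31 in NFIX-cKO, and 117 and 81.2 in NFIB/X-dKO. Both NFIB/X-dKO libraries were far above the rest, and among the other 6 WT 34 and NFIX-cKO 32, the remaining animals numbered in the 30s, stood highest. With the number series as a covariate and after median-of-ratios scaling, 19 of the 20 genes kept this class in each case.

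Of the 94 genes that changed by more than the sum, 4 were called in NFIB-cKO against WT (all protein-coding genes tested: 0.701%) and 0 in NFIX-cKO (0.0564%). Between NFIB/X-dKO and NFIB-cKO 1 was called (0.0887%), and between NFIB/X-dKO and NFIX-cKO 33 were (0.822%). The 94 were chosen and sorted by these same libraries. With the number series as a covariate 49 of the 94 kept this class. Gap43, a growth cone protein of neurons, stood at 0.18 and 0.31 TPM in WT, 3.10 and 1.98 in NFIB-cKO, 0.65 and 0.64 in NFIX-cKO, and 10.2 and 13.6 in NFIB/X-dKO. The 4 groups did not overlap, and the rise was 3.36 ± 0.25 (adjusted p = 0.00252) with an interaction of 1.47 ± 0.35 (adjusted p = 0.397). Fa2h, the fatty acid 2-hydroxylase of sphingolipid synthesis, stood at 32.1 and 63.3 TPM in WT, 7.40 and 11.4 in NFIB-cKO, 16.6 and 31.2 in NFIX-cKO, and 0.39 and 0.59 in NFIB/X-dKO. Its change was -4.96 ± 0.41 (adjusted p = 0.0028) with an interaction of -1.82 ± 0.57 (adjusted p = 0.502). Tgm5, a transglutaminase of the cornified envelope, stood at 626 and 580 TPM in WT, 330 and 256 in NFIB-cKO, 512 and 455 in NFIX-cKO, and 105 and 112 in NFIB/X-dKO. All 4 groups were apart, NFIX-cKO nearest to WT, and the change was -2.47 ± 0.15 (adjusted p = 0.00139). Tgm5 was the gene that differed between NFIB/X-dKO and NFIB-cKO (-1.42, adjusted p = 0.0202). Elovl3 and Cidea, a fatty acid elongase and a lipid droplet protein of sebaceous glands, fell by 3.77 and 3.58, and Fam180a, a secreted protein, fell by 3.12. Synpo2, an actin-binding protein, Pappa, a protease of insulin-like growth factor binding proteins, and BC117090, a stefin-like gene with close copies, rose by 2.71, 2.46 and 2.66. With the covariate Fa2h, Elovl3, Cidea and Pappa were sorted as adding up, the interaction of Fa2h being -0.90, while Gap43, Tgm5, Synpo2, Fam180a and BC117090 kept the class.

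Of the 136 genes whose change added up, 22 were called in NFIB-cKO against WT (all protein-coding genes tested: 0.701%) and 1 in NFIX-cKO (0.0564%). Between NFIB/X-dKO and NFIB-cKO 3 were called (0.0887%), and between NFIB/X-dKO and NFIX-cKO 32 were (0.822%). The 136 too were chosen and sorted by these same libraries. With the number series as a covariate 74 of them kept this class. Mest, an imprinted hydrolase gene, stood at 2.17 and 2.52 TPM in WT, 5.31 and 6.45 in NFIX-cKO, 18.1 and 21.6 in NFIB-cKO, and 68.1 and 66.1 in NFIB/X-dKO. The rise was 4.35 ± 0.17 (adjusted p = 0.000246), of which NFIB-cKO reached 2.64 and NFIX-cKO 1.04. Piezo2, a mechanically gated ion channel, stood at 1.79 and 2.18 TPM in WT, 10.7 and 8.58 in NFIX-cKO, 15.8 and 20.5 in NFIB-cKO, and 54.1 and 57.7 in NFIB/X-dKO. It rose by 1.83 in NFIX-cKO (adjusted p = 0.0287), by 2.67 in NFIB-cKO (adjusted p = 0.00329) and by 4.25 with both lost (adjusted p = 0.000325), with an interaction of -0.24 ± 0.27. Sardh, the mitochondrial sarcosine dehydrogenase, stood at 78.5 and 48.7 TPM in WT, 25.1 and 14.1 in NFIX-cKO, 9.93 and 4.68 in NFIB-cKO, and 1.89 and 1.11 in NFIB/X-dKO. Its shares summed to 0.998, and the interaction was -0.01 ± 0.59. In these 3 genes no groups overlapped, and NFIX-cKO always lay between WT and NFIB-cKO. Krt24, a keratin of quiescent bulge cells, stood at 460 and 353 TPM in WT, 248 and 261 in NFIX-cKO, 46.0 and 71.1 in NFIB-cKO, and 26.7 and 28.6 in NFIB/X-dKO (-3.82 ± 0.22, adjusted p = 0.00102). Chst9, a sulfotransferase, and Plekha6, a membrane-associated adaptor, rose by 3.15 and 3.04, and Ces1d, a carboxylesterase with close copies, fell by 3.20. Ccl27b, a skin chemokine gene, fell by 5.67, and its values are uncertain because near-identical copies lie beside it.

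**Figure D2:**
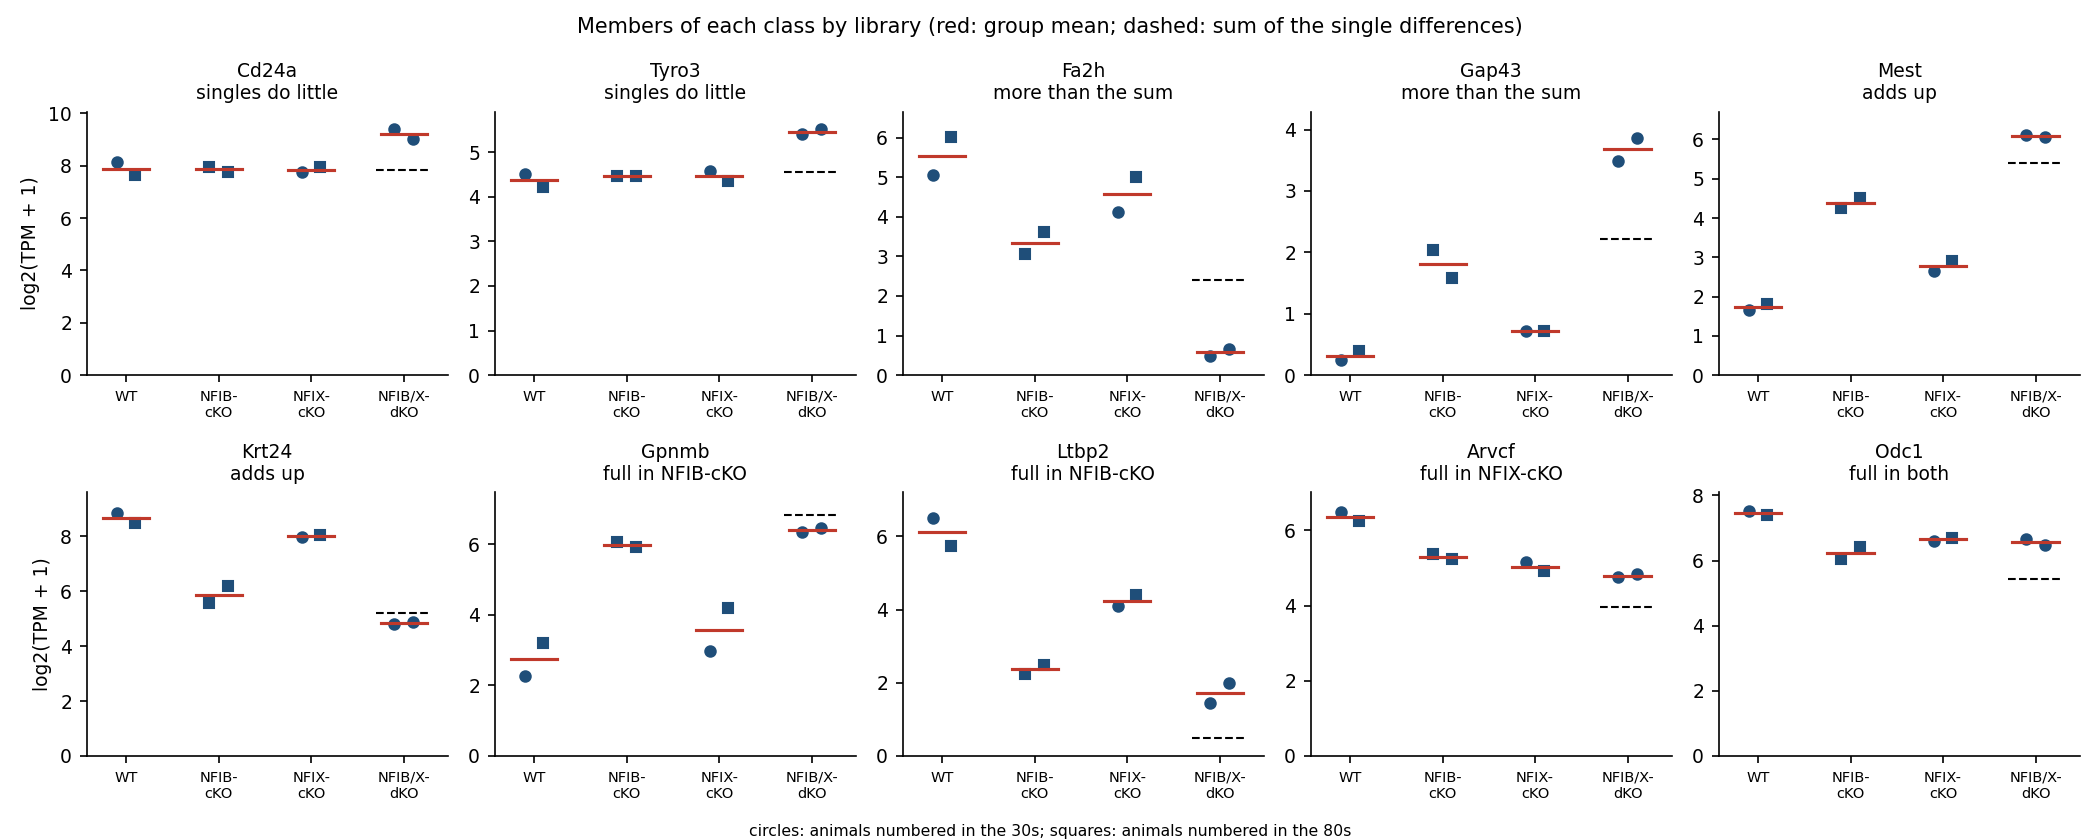
Level of 10 genes by library as log2(TPM + 1) on the vertical axis, with the 4 genotypes on the horizontal axis; points are libraries (circles for animals numbered in the 30s, squares for the 80s), red lines group means, and the dashed line over NFIB/X-dKO marks where the sum of both single differences would put it. Cd24a and Tyro3 leave WT only in NFIB/X-dKO, Fa2h and Gap43 pass the dashed line, Mest and Krt24 pass it by 0.68 and 0.36, and Gpnmb, Ltbp2, Arvcf and Odc1 stop short of it.

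Changes full in NFIB-cKO included bulge genes that were nearly lost there. Cck, the cholecystokinin precursor, stood at 63.2 and 35.2 TPM in WT, 0.27 and 0.55 in NFIB-cKO, 14.0 and 5.73 in NFIX-cKO, and 0.30 and 0.37 in NFIB/X-dKO. The NFIB-cKO and NFIB/X-dKO libraries interleaved, and NFIX-cKO lay between them and WT. The change in NFIB/X-dKO was -5.17 ± 0.42 (adjusted p = 0.0028), beside -5.10 in NFIB-cKO (adjusted p = 0.00505), a share of 0.986. Ltbp2, a latent TGF-beta binding protein of the matrix, stood at 89.0 and 52.6 TPM in WT, 3.76 and 4.62 in NFIB-cKO, 16.2 and 19.9 in NFIX-cKO, and 1.7 and 3.01 in NFIB/X-dKO (-4.40 ± 0.30, adjusted p = 0.00242). Gpnmb, a transmembrane glycoprotein of pigment cells and macrophages, stood at 3.86 and 8.27 TPM in WT, 65.4 and 59.8 in NFIB-cKO, 6.85 and 17.3 in NFIX-cKO, and 80.6 and 86.8 in NFIB/X-dKO (3.66 ± 0.43, adjusted p = 0.00868). For Gpnmb, NFIX-cKO overlapped WT, while NFIB-cKO lay below NFIB/X-dKO without overlapping it. The 5 melanocyte markers summed to 10.4 and 22.4 TPM in WT, 32.4 and 30.6 in NFIB-cKO, 21.7 and 16.2 in NFIX-cKO, and 25.8 and 25.4 in NFIB/X-dKO, and their part in the Gpnmb result was not tested. Myoc, which encodes myocilin, fell by 5.46, and Rnase2b, a ribonuclease with close copies, fell and is listed at 0 in both NFIB/X-dKO libraries. Atp12a, a proton pump, Sphkap, an anchoring protein for protein kinase A, and Pdgfc, a platelet-derived growth factor, rose by 3.51, 2.58 and 2.54. Of the 114 genes, 49 were called in NFIB-cKO against WT on their own and 0 in NFIX-cKO, against 0.701% and 0.0564% of all protein-coding genes tested. By direction these were 0.298% higher and 0.403% lower in NFIB-cKO, and 0.0403% higher and 0.0161% lower in NFIX-cKO. The sorting largely fixes the counts of the 114, since it uses the same NFIB-cKO and NFIX-cKO differences from WT. The 394 changed genes, 3.18% of those tested, held 81 of the 87 genes called in NFIB-cKO and 6 of the 7 called in NFIX-cKO. These comparisons share the WT libraries and the same fitted spread, which by itself makes their calls overlap.

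Full changes in NFIX-cKO alone were few and small. Arvcf, a catenin of the p120 family at cell junctions, stood at 89.0 and 74.7 TPM in WT, 40.2 and 36.6 in NFIB-cKO, 34.8 and 29.2 in NFIX-cKO, and 26.2 and 27.4 in NFIB/X-dKO. The groups did not overlap and NFIB-cKO reached a share of 0.68 beside 0.85 in NFIX-cKO, so both singles went most of the way. The change was -1.57 ± 0.15 (adjusted p = 0.00513), and the gene was also called in NFIX-cKO (-1.33, adjusted p = 0.0393) and NFIB-cKO (-1.07, adjusted p = 0.0358). Fam13c had a smaller NFIB share (0.38, against 0.78 in NFIX-cKO), at 13.7 and 14.5 TPM in WT, 10 and 9.16 in NFIB-cKO, 5.46 and 7 in NFIX-cKO, and 4.50 and 5.20 in NFIB/X-dKO (-1.37 ± 0.18, adjusted p = 0.0138). Acot1, an acyl-CoA thioesterase with a close copy, fell by 1.16. Jund, an AP-1 subunit, and Hspa1b, an inducible heat shock protein with a near-identical copy, fell by 1.03 and 0.92. They were the 2 of 28 immediate early and heat shock genes tested that changed, where 3.18% of all protein-coding genes tested changed. That list summed to 15602 TPM in NFIX-cKO 32 against 23513 to 41021 in the other 7 libraries, and its part in these results was not tested. Gmnn, the replication licensing inhibitor geminin, and Acy3, an aminoacylase, rose by 1.15 and 1.09. With TPM scaled by median-of-ratios factors, 2 of the 9 genes kept the class.

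Among the 10 genes full in both singles, the group mean in NFIB-cKO could go beyond that in NFIB/X-dKO. It did so for Hs3st6 (share 1.85), Mcam (1.385), Odc1 (1.36) and Esr1 (1.27). Odc1, the rate-limiting enzyme of polyamine synthesis, stood at 184 and 169 TPM in WT, 65.5 and 83.7 in NFIB-cKO, 97.1 and 103 in NFIX-cKO, and 99.9 and 87.4 in NFIB/X-dKO (-0.91 ± 0.15, adjusted p = 0.0301). All 3 knockout groups lay close together below WT, and Chchd10, a mitochondrial intermembrane protein, had the same layout with 9.49 and 10.9 TPM in WT and 3.53 to 4.35 in the other 6 libraries. Cadm3, a neuronal adhesion protein, stood at 23.4 and 4.67 TPM in WT, which lie far apart, and at 0.06 to 0.70 in the 6 knockout libraries. Rhoc, a small GTPase, rose by 1.29. A layout in which all Cre and YFP-gated groups stand apart from WT by the same amount is what the confounded gate would also give, and it cannot be told apart here. The class that changed by less than the sum held the hair and stress keratin Krt17 (1066 and 1515 TPM in WT, 2732 and 3972 in NFIB-cKO, 3803 and 2961 in NFIX-cKO, with NFIB/X-dKO at 4752 and 5077). It also held Tmem176a, Kcnmb4 and Ttc39c among rises and Enc1, Csf1, Cacna1c and B4galnt3 among falls.

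The interaction itself passed the test for 5 protein-coding genes (0.0403% of those tested), 2 of them (0.0161%) above the sum of the single changes and 3 (0.0242%) below it. At an unadjusted p under 0.05 the number was 1048 (8.45%), with 616 above (4.97%) and 432 below (3.48%). The median interaction of all protein-coding genes was 0.15, and it was -0.10 after median-of-ratios scaling and -0.04 with the number series as a covariate, so the balance of signs depends on the scaling. Leaving out 1 library at a time left 1 to 5 called genes, with Pde9a among them each time; it was 1 without WT 82, NFIB-cKO 81, NFIB-cKO 85 or NFIB/X-dKO 33, 2 without WT 34 or NFIB/X-dKO 36, and 3 without NFIX-cKO 88. Within the number series 0 passed in limma, with 1054 at an unadjusted p under 0.05. Only 3 of the 394 changed genes, Esr1, Hs3st6 and Gm10719, were among the 5. Of the 394, 88 had an unadjusted p under 0.05, 48 with the sign of the NFIB/X-dKO change and 40 with the opposite sign. Those 88 include all 20 genes where the singles did little and all 10 full in both, which the sorting largely fixes, since it uses the same differences as the interaction.

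Pde9a, a cyclic GMP phosphodiesterase, had the smallest p of the interaction. It stood at 4.14 and 4.06 TPM in WT, 0.11 and 0.27 in NFIB-cKO, 0.18 and 0.07 in NFIX-cKO, and 4.81 and 6.27 in NFIB/X-dKO. Both singles were near 0, far below WT, and NFIB/X-dKO lay slightly above WT. The interaction was 4.63 ± 0.31 SE (limma adjusted p = 0.00322), 4.55 with the number series as a covariate (adjusted p = 0.0255), and 4.55 within the series (adjusted p = 0.122). The values of 4.55 are the same estimate by construction and differ only in the fitted spread. Hs3st6, a heparan sulfate sulfotransferase, stood at 16.9 and 18.4 TPM in WT, 54.3 and 44.9 in NFIB-cKO, 44.6 and 40.6 in NFIX-cKO, and 30.5 and 31.3 in NFIB/X-dKO. The 4 groups did not overlap: both singles lay above NFIB/X-dKO, and NFIB/X-dKO above WT. The interaction was -1.89 ± 0.21 (adjusted p = 0.0394, and 0.0897 with the covariate). Pde9a and Hs3st6 lie on chromosome 17, as do Prss41 (2.37, adjusted p = 0.0772) and Glp1r (2.31, adjusted p = 0.0827), named after their values were seen. Of the 12 protein-coding genes with an interaction adjusted p under 0.1, 4 were on chromosome 17, which holds 4.96% of those tested. WT and NFIB/X-dKO carry the same floxed alleles of both genes and the singles do not, so a difference between strains cannot be told apart from an interaction.

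Esr1, the oestrogen receptor gene, stood at 0.47 and 0.33 TPM in WT, 31.8 and 32.4 in NFIB-cKO, 15.1 and 26.1 in NFIX-cKO, and 12.6 and 19.9 in NFIB/X-dKO. It was absent or nearly so only in WT, the group without CreER, and its interaction was -4.87 ± 0.42 (adjusted p = 0.0151, and 0.0863 with the covariate). How many of its reads come from the transgene was not tested. Gm10719, a predicted gene of the chromosome 9 cluster described above, stood at 0.51 to 0.94 TPM in the 6 libraries outside NFIB/X-dKO and at 24.7 and 13.7 in NFIB/X-dKO, with an interaction of 3.59 ± 0.41 (adjusted p = 0.0446, and 0.161 with the covariate). Cyp2g1, a cytochrome P450 of olfactory tissue, stood at 6.19 and 2.78 TPM in WT, 10.1 and 13.4 in NFIB-cKO, 17.9 and 19.9 in NFIX-cKO, and 1.19 and 1.92 in NFIB/X-dKO. It was the 1 gene of the 5 in which both singles lay above WT and NFIB/X-dKO below it, with an interaction of -4.26 ± 0.47 (adjusted p = 0.0394, and 0.0883 with the covariate). Mcam, an adhesion receptor known as CD146, came next, at 2.88 and 2.69 TPM in WT, 11.3 and 16.5 in NFIB-cKO, 14.2 and 12.2 in NFIX-cKO, and 9.20 and 8.93 in NFIB/X-dKO (-2.45 ± 0.30, adjusted p = 0.0516). Above the sum, Rarres1 (1.8 ± 0.26, adjusted p = 0.101) and Ermard (1.58 ± 0.27, adjusted p = 0.202) had the smallest p after Pde9a among genes of at least 5 TPM, predicted genes left out, and neither passed the test. Hist1h2bc, a histone gene drawn beside them, had an interaction of -1.82 ± 0.22 (adjusted p = 0.0537) and was named after its values were seen.

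**Figure D3:**
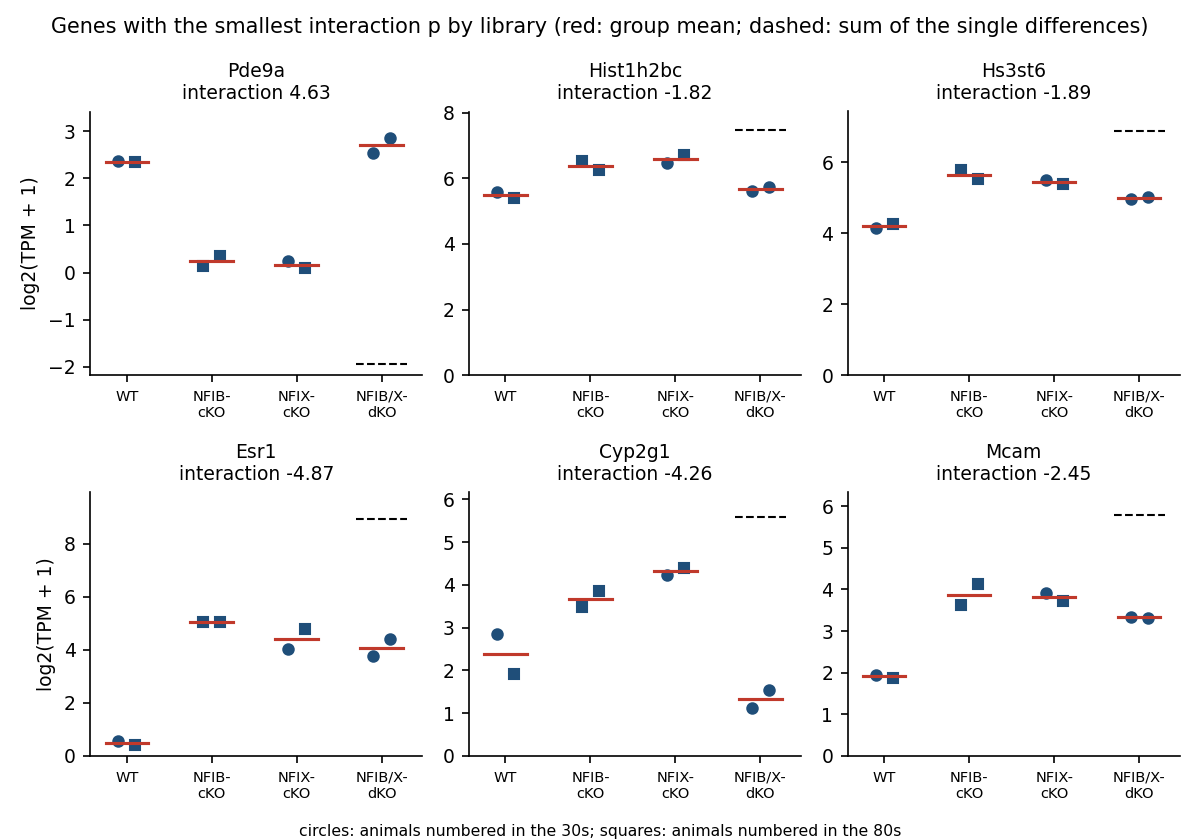
Level of 6 genes with small interaction p by library as log2(TPM + 1) on the vertical axis and genotype on the horizontal axis; points are libraries (circles for animals numbered in the 30s, squares for the 80s), red lines group means, and the dashed line marks the sum of both single differences. Pde9a lies far above its dashed line in NFIB/X-dKO and the other 5 genes lie below theirs.

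Genes called for loss of NFIB mostly moved the same way whether NFIX was present or lost. With NFIX present, 87 protein-coding genes were called in NFIB-cKO against WT, and with NFIX lost, 102 (0.822%, with 0.468% higher and 0.355% lower) in NFIB/X-dKO against NFIX-cKO. These comparisons share no library. For both factors only the comparison with WT adds Cre and the YFP gate, and NFIX-cKO already carries 1 floxed Nfib allele. The settings compared are therefore not alike in these respects. Of the 87, 82 had the same sign where NFIX was lost, 44 were called there too, and the median ratio of the differences was 0.70. Of the 102, 92 had the same sign where NFIX was present, with a median ratio of 0.735. The genes were chosen by their size in the first comparison of each pair. Over all 12404 genes Pearson's r between the NFIB differences was 0.23, a description across genes, which are not independent replicates. With the number series as a covariate r was 0.46. Loss of NFIX gave few calls in either setting, 7 with NFIB present and 11 (0.0887%, with 0.0726% higher and 0.0161% lower) with NFIB lost. Of the 7, 3 had the same sign in the other setting, and Piezo2 was the 1 gene called in both with the same sign (1.83 and 1.58). Pde9a was called in both with opposite signs (-2.18 and 2.45). NFIB/X-dKO against NFIB-cKO sets animals of the 30s wholly against animals of the 80s. With the number series as a covariate 21 genes were called with NFIB present and 5 with NFIB lost, 14 of the 21 and 5 of the 5 had the same sign in the other setting, and 2 were called in both with the same sign. The 11 held Piezo2, Mest, Tgm5 and Pde9a, with the other 7 being predicted genes.

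**Figure D4:**
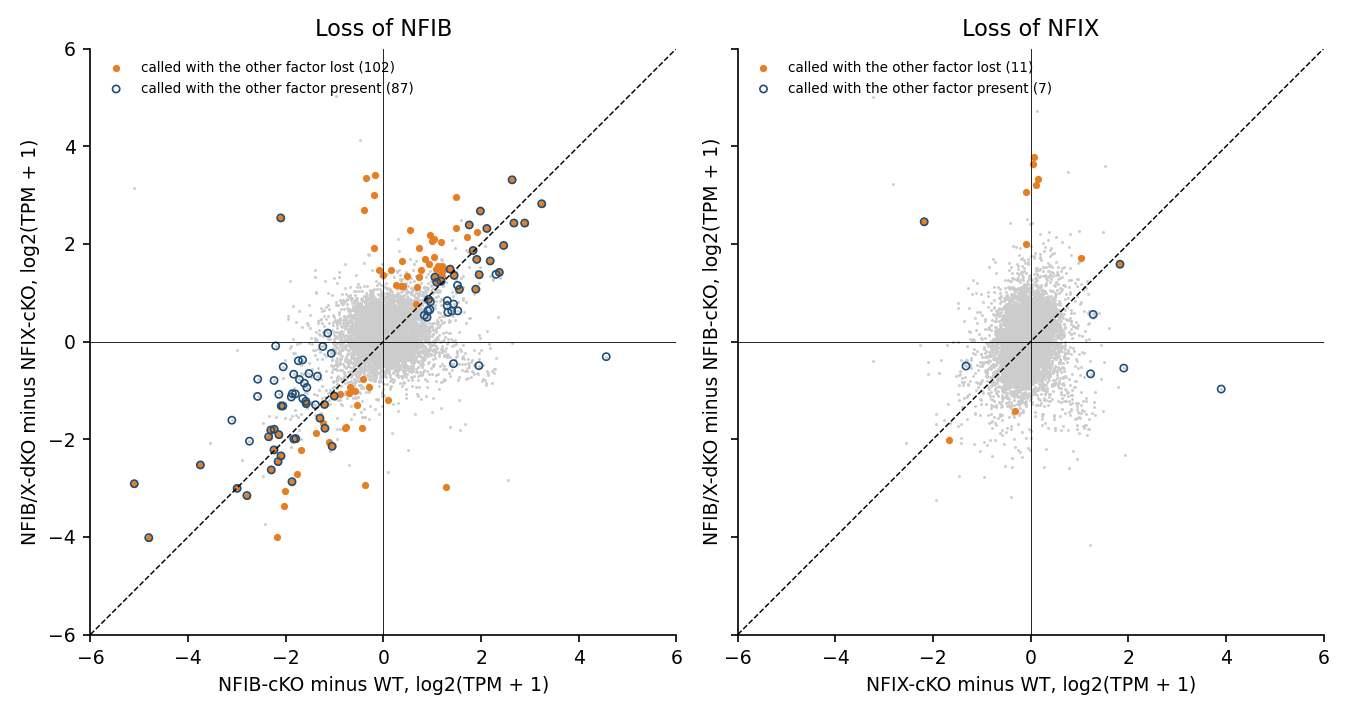
Difference on log2(TPM + 1) for loss of NFIB (left) and loss of NFIX (right), with the other factor present on the horizontal axis and lost on the vertical axis; grey points are all 12404 protein-coding genes, orange points were called with the other factor lost and blue rings with it present, and the dashed diagonal marks equal differences. For NFIB, 82 of 87 rings lie in the quadrants of equal sign; for NFIX, 7 rings and 11 orange points are too few to show a trend.

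The counts allowed a test of the NFIX-lost arm alone. In edgeR on expected counts, 56 of 14304 protein-coding genes (0.391%) differed between NFIB/X-dKO and NFIX-cKO, 19 higher (0.133%) and 37 lower (0.259%). All but 2 of the 394 changed genes were tested and 45 called, 16 higher and 29 lower. By class, 18 of these 45 were full in NFIB-cKO, 14 changed by more than the sum, 12 added up, and 1 came from the class where singles do little. DESeq2 called 751 protein-coding genes in the same comparison, among them all 56 of edgeR. The edgeR count was 0 without NFIB/X-dKO 33 or NFIB/X-dKO 36, 5691 without NFIX-cKO 32 and 1573 without NFIX-cKO 88, so it rests on single libraries.

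Gene groups differed in how their changed members were spread over the classes, which is described by counts only. Of 26 sebaceous gland and fatty acid synthesis genes tested, 13 fell in NFIB/X-dKO and 0 rose, against 1.38% falling among all genes, with 7 full in NFIB-cKO, 3 more than the sum and 3 adding up. In NFIB-cKO 6 of them fell and in NFIX-cKO 0, where 0.403% and 0.0161% of all protein-coding genes tested fell. Elovl4, which makes very long chain fatty acids, belonged to the first kind, at 69.8 and 98.2 TPM in WT, 19.9 and 17.5 in NFIB-cKO, 50.8 and 47.9 in NFIX-cKO, and 20.8 and 17.7 in NFIB/X-dKO (-2.05 ± 0.19, adjusted p = 0.00477). NFIB-cKO and NFIB/X-dKO overlapped, unlike Fa2h, Elovl3 and Cidea above, for which NFIB/X-dKO lay below NFIB-cKO.

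Of 31 hair follicle stem cell identity genes tested, 7 fell and 1 rose, where 1.38% of all protein-coding genes fell and 1.8% rose. The falls of Lhx2, a LIM homeobox factor that maintains the bulge, Lgr5, an R-spondin receptor, Hopx, Foxc1 and Krt24 added up. Lhx2 stood at 291 and 314 TPM in WT, 182 and 189 in NFIB-cKO, 210 and 262 in NFIX-cKO, and 104 and 122 in NFIB/X-dKO (-1.42 ± 0.15, adjusted p = 0.00612). All 3 knockout groups lay below WT and NFIB/X-dKO below both singles. Foxc1, a forkhead factor of bulge quiescence, was unusual in this group for a larger NFIX share (0.74) than NFIB share (0.33), at 28.1 and 27.8 TPM in WT, 21.5 and 23.7 in NFIB-cKO, 15.9 and 18.6 in NFIX-cKO, and 15.7 and 13.3 in NFIB/X-dKO, and was named after its values were seen. Wif1, a secreted Wnt inhibitor, was the gene that rose, at 54.5 and 78.3 TPM in WT, 103 and 157 in NFIB-cKO, 54.8 and 58.6 in NFIX-cKO, and 267 and 254 in NFIB/X-dKO (1.98 ± 0.24, adjusted p = 0.00906). WT overlapped NFIX-cKO, and NFIB/X-dKO lay above all other libraries.

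Of 33 Wnt signalling genes tested, 6 rose and 3 fell, 5 of them adding up. The shares over all protein-coding genes, to be set beside each count here, were 1.8% rising and 1.38% falling. Lgr4, another R-spondin receptor, rose by 1.24 while Lgr5 fell by 1.57, and Nkd1, an intracellular inhibitor, fell by 1.65. Of 31 basement membrane and adhesion genes 7 rose and 0 fell, 4 of them full in NFIB-cKO. Egfl6, a matrix protein of the bulge, stood at 85.6 and 101 TPM in WT, 291 and 260 in NFIB-cKO, 131 and 143 in NFIX-cKO, and 284 and 292 in NFIB/X-dKO (1.62 ± 0.13, adjusted p = 0.0028). NFIB-cKO and NFIB/X-dKO overlapped for Egfl6, and Tnc, which encodes tenascin C, was higher in NFIB-cKO (282 and 209 TPM) than in NFIB/X-dKO (143 and 170) with WT at 45.9 and 40.7 and NFIX-cKO at 52.6 and 29.1. The 5 fibroblast and papilla markers summed to 24.4 and 25.3 TPM in WT, 86.7 and 58.6 in NFIB-cKO, 25.4 and 42.2 in NFIX-cKO, and 55.6 and 68.1 in NFIB/X-dKO. Most of the sum in NFIB-cKO and NFIB/X-dKO was Col1a1 (77.3, 55.1, 53.3 and 65.1 TPM). Col1a2 had another layout, at 11.8 and 8.01 TPM in WT, 9.22 and 3.26 in NFIB-cKO, 10.6 and 33.6 in NFIX-cKO, and 2.17 and 2.81 in NFIB/X-dKO. Lum, Pdgfra and Col3a1 stayed at or under 0.45. The part of these markers in the result was not tested. Of 34 axon guidance and neural genes 9 rose and 1 fell, 4 of them by more than the sum, while the nerve and Schwann cell markers summed to 3.35 to 6.59 TPM in all libraries. Sema3e, a secreted guidance cue, stood at 94.9 and 71.4 TPM in WT, 114 and 164 in NFIB-cKO, 117 and 109 in NFIX-cKO, and 291 and 275 in NFIB/X-dKO (1.77 ± 0.21, adjusted p = 0.00833). Of 37 BMP and TGF-beta genes 2 rose and 2 fell. Tgfb3, a TGF-beta ligand, reached an NFIX share of 0.74 against 0.28 for NFIB, at 20.7 and 20.1 TPM in WT, 23.2 and 32.8 in NFIB-cKO, 55.7 and 37.3 in NFIX-cKO, and 58.4 and 62.1 in NFIB/X-dKO (1.52 ± 0.23, adjusted p = 0.0221). Epidermal differentiation, hair germ and interferon genes gave 1, 0 and 1 changed genes of 33, 15 and 25 tested, where 3.18% of all protein-coding genes changed. No gene of these lists was among the 5 called in the interaction by limma.

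The list of DNA replication and mitosis genes stood apart in its median interaction, without a call, through its mitosis genes. Of 38 genes tested, NFIB-cKO against WT gave 0 calls, NFIX-cKO 0 and NFIB/X-dKO 2. Over all protein-coding genes tested, 0.701%, 0.0564% and 3.18% were called in these comparisons. The median differences were 1.52 for NFIB-cKO, 0.76 for NFIX-cKO and 0.48 for NFIB/X-dKO, and 36, 35 and 36 of the 38 group means lay above WT. The NFIB-cKO median was 0.95 without NFIB-cKO 85, and the NFIB/X-dKO median was 0.23 without NFIB/X-dKO 36 and 0.29 without WT 34. Gins2 and Uhrf1 were the genes that rose in NFIB/X-dKO (0.93 and 1). Gins2, a subunit of the replicative helicase, stood at 17.8 and 18 TPM in WT, 21.7 and 25.4 in NFIB-cKO, 28.5 and 24.7 in NFIX-cKO, and 34.8 and 35.3 in NFIB/X-dKO. Uhrf1, which maintains DNA methylation, stood at 8.74 and 9.85 TPM in WT, 18.8 and 21.6 in NFIB-cKO, 16.1 and 13.6 in NFIX-cKO, and 18.7 and 20.5 in NFIB/X-dKO, so that NFIB-cKO and NFIB/X-dKO overlapped. The median interaction of the 38 was -1.88 against 0.15 over all protein-coding genes, and 25 had an unadjusted p under 0.05, all below the sum, where 3.48% of all genes lay. The smallest adjusted p was 0.34. The list was not uniform. Its low values were those of mitosis genes such as Plk1 (-2.07) and Bub1 (-1.57), while replication genes lay between -0.85 (Tk1) and 0.45 (Mcm4). These genes were named after their values were seen. NFIB-cKO 85 was the highest library in 28 of the 38, and without it the median interaction was -1.34. It was -2.49 without NFIB-cKO 81 and -1.65 with the number series as a covariate. Cdc20, an activator of the anaphase-promoting complex named after its values were seen, had the lowest interaction (-3.07, adjusted p = 0.37), at 3.93 and 8.08 TPM in WT, 18.2 and 50.2 in NFIB-cKO, 11.6 and 16.6 in NFIX-cKO, and 6.06 and 8.73 in NFIB/X-dKO. In bulk libraries a share of dividing cells cannot be told apart from a level per cell.

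**Figure D5:**
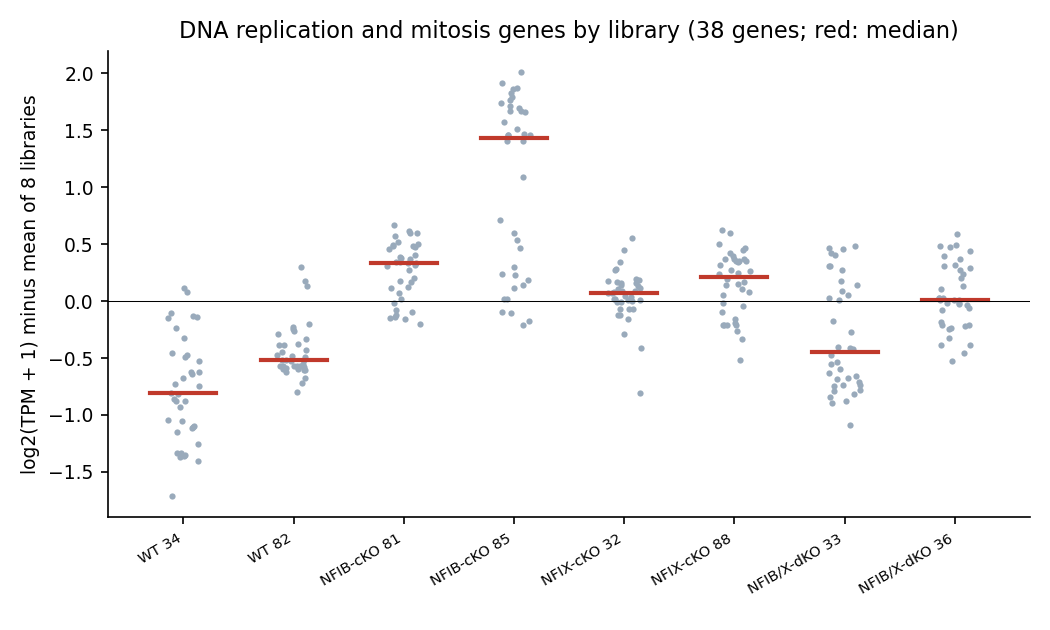
Level of 38 DNA replication and mitosis genes in each library as log2(TPM + 1) less the gene's mean over 8 libraries (vertical axis), 1 grey point per gene and a red line at the median. Medians run from -0.81 in WT 34 to 1.43 in NFIB-cKO 85, with NFIB/X-dKO at -0.45 and 0.01.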

How the data were processed

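The authors' RNA-seq values cover sorted hair follicle stem cells of 4 genotypes with 2 animals each, made into TruSeq mRNA libraries and read from both ends. The authors deposited 1 table of TPM for all 8 libraries, used for every comparison across genotypes, and tables of expected counts for 5 libraries. Per the submitters' processing notes, Bowtie2 2.2.9 and RSEM 1.2.30 were used with mm10 (GRCm38). The annotation release was not given in the sources used here. Gene types and coordinates come from GENCODE M21, which matched 46005 of 46517 genes, and 0 columns of the shared table were left unmapped. Depth is known for the 5 libraries with counts only. With 2 animals per group, the spread measured is that between these animals.

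Log2(TPM + 1) values of genes that reached 1 TPM in 2 or more libraries were fitted in limma 3.58.1 (R 4.3.3) with 1 mean per genotype over all 8 libraries, a variance trend and Benjamini-Hochberg adjustment over all 15434 genes tested. Fold changes on this scale understate changes of low genes. Expected counts were rounded to whole numbers and NFIB/X-dKO was tested against NFIX-cKO with edgeR 4.0.16 (quasi-likelihood), with DESeq2 1.42.0 as the alternative. The fits were tested on simulated data. Named genes are, per class and direction, the 4 with the largest NFIB/X-dKO change, a mean TPM of at least 5 in WT or NFIB/X-dKO and no overlap between these groups, predicted genes skipped. For the interaction they are up to 6 per direction past the test, or the 3 with the smallest p where fewer than 3 pass. Up to 4 genes per list with the smallest p, the NFI genes and Esr1 were added. The classes, members, lists and tests were chosen with earlier results of these data known. Alternatives changed the pseudocount, filter, scaling, animal number series, variance trend, class limits, scale and libraries used. The result of 1 gene that the naming rule selects is not reported here.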

Additional observations from a re-analysis of the deposited data

Results flagged for a closer look

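In 5 protein-coding genes the NFIB/X-dKO minus NFIX-cKO difference departed from the NFIB-cKO minus WT difference, by limma's test of the interaction. The Cre and YFP gate, the floxed Nfib allele of NFIX-cKO and a strain difference cannot be told apart from such a departure. The interaction was 4.63 for Pde9a (limma adjusted p = 0.00322), with a change of -2.10 when NFIX was present and 2.53 when it was lost. It was -4.87 for Esr1 (adjusted p = 0.0151), from 4.56 to -0.31, and -4.26 for Cyp2g1 (adjusted p = 0.0394), from 1.28 to -2.98. It was -1.89 for Hs3st6 (adjusted p = 0.0394), from 1.44 to -0.45, and 3.59 for Gm10719 (adjusted p = 0.0446), from -0.18 to 3.42. With the animal number series as a covariate the limma adjusted p was 0.0255 for Pde9a, 0.0863 for Esr1, 0.0883 for Cyp2g1, 0.0897 for Hs3st6 and 0.161 for Gm10719. Gm10719 lies among close copies on chromosome 9, and its value is uncertain. Esr1 was absent or nearly so only in WT, the group without CreER.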

How the results depend on the processing

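The interaction count of 5 became 2 with a pseudocount of 0.1, 9 with no filter, 3 with a TPM of at least 5, 2 with the number series as a covariate, 0 within the series, 8 with no variance trend and 12 at an adjusted p under 0.1, and ranged from 1 to 5 when 1 library was left out. The 394 changed genes became 180 with no filter and 31 to 509 when 1 library was left out. Median-of-ratios factors gave 179 higher and 218 lower genes against 223 and 171. The share where singles do little (5.08%) became 9.44% with no filter, 9.64% with class limits moved inward, 9.39% on linear TPM, and 3.62% to 10.2% with 1 library left out. The share above the sum (23.9%) became 18.9% with the covariate, 18% with the inward limits, and 13.8% to 32.6% with 1 library left out. The share adding up (34.5%) became 24.9% with the inward limits, 20.3% on linear TPM, and 22.6% to 50.3% with 1 library left out. The share below the sum (2.79%) became 0.761% with the inward limits and 0.976% to 4.93% with 1 library left out. The share full in a single knockout (33.8%) became 39.6% with the covariate, 26.8% within the series, 46.7% with the inward limits, 40.4% on linear TPM, and 27.3% to 49.7% with 1 library left out. Without either NFIB/X-dKO library too few genes were called for the class shares. The edgeR count of 56 became 182 with no filter, 34 with no normalization factors, 751 in DESeq2 and 0 to 5691 with 1 library left out. The cause of these moves was not tested. The named genes counted next had all passed the test with the main settings, so none could gain the threshold. They were mostly chosen for large changes or a small p. Of the values for named genes under these alternatives, 946 kept direction and side of the threshold, 356 kept direction but lost the threshold, and 0 reversed.

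No paired analysis was possible because the animal numbers in the labels are not shared between genotypes. Of the 394 genes, 240 kept their class with the series covariate, 211 within the series, 278 after scaling and 145 in all of these fits. A lone library left in a group was assumed to vary like the other groups. With 2 animals per genotype, gate, animal number series and genotype overlap in part, and the depth of 3 libraries is unknown.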

Other observations

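Cholesterol synthesis genes had a median interaction of 0.62 over 23 genes, against 0.15 over all protein-coding genes, and 9 had an unadjusted limma p under 0.05, where 8.45% of all protein-coding genes did. After median-of-ratios scaling the median was 0.37 and 4 had such a p, and without 1 library at a time 5 to 15 did. Their summed level was 1001 and 1222 TPM in WT, 685 and 803 in NFIB-cKO, 968 and 729 in NFIX-cKO, and 918 and 929 in NFIB/X-dKO. NFIB-cKO and NFIX-cKO overlapped, and none of the 23 was called in the interaction. Interferon response and antigen presentation genes had a median interaction of -0.53 over 25 genes, with 9 at an unadjusted p under 0.05, beside the same 8.45%. That number was 3 with the animal number series as a covariate, 3 without WT 34 or NFIB-cKO 81, 4 without NFIB-cKO 85, 5 without NFIX-cKO 88 and 2 without NFIB/X-dKO 36. Their sum was 2717 and 3454 TPM in WT, 4666 and 3968 in NFIB-cKO, 2846 and 3393 in NFIX-cKO, and 2833 and 2320 in NFIB/X-dKO, highest in NFIB-cKO. None of the 25 was called in the interaction either.

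Among all genes tested, 18 passed the interaction test in limma. Beside the 5 protein-coding genes these were 8 processed pseudogenes, 1 transcribed processed pseudogene and 4 miRNA genes, whose short or copied sequences make TPM uncertain.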
